A study of Mus musculus with 14 samples.

Results

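The genes described here sense cellular sterol and set cholesterol synthesis and lipoprotein uptake: Srebf1, Srebf2, Scap, Insig1, Insig2, Mylip, Nr1h3 and Stard4, chosen by name. Of the 8 genes, 7 had a probe set among the 22206 tested on the array, with 1 probe set each. No probe set carried the symbol Srebf1, and that gene was not analysed here. RNA from 14 samples was hybridised to Clariom S microarrays, 1 array each, and came from adult male wild-type C57Bl6 mice kept for 2 weeks on a diet. CDAA, a choline-deficient amino acid-defined diet, was given with added cholesterol, glucose and fructose, and the series title calls this diet CDAA-HSHC. CSAA, its choline-supplemented counterpart, was the control. The groups were total liver on CDAA (n = 4), total liver on CSAA (n = 4), primary hepatocytes on CDAA (n = 3) and primary hepatocytes on CSAA (n = 3). Total liver was the caudal lobe after perfusion of the heart with saline and so holds every liver cell type, whereas hepatocytes came from a collagenase perfusion. The series design calls the preparations independent and does not state whether any pooled animals, so p-values measure the spread between preparations.

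Sterol regulatory element-binding proteins are transcription factors held in the endoplasmic reticulum membrane. When sterol is scarce, the escort protein SCAP carries them to the Golgi apparatus, where proteases release the active factor, and when sterol is plentiful, SCAP is retained by INSIG proteins. SREBP-2, the product of Srebf2, mainly drives cholesterol synthesis and LDL uptake. LXR-alpha, encoded by Nr1h3, is activated by oxysterols and raises genes of cholesterol disposal, among them Mylip, whose product is a ubiquitin ligase that marks the LDL receptor for degradation. STARD4 moves sterol between membranes and is encoded by a target gene of SREBP-2.

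Promoter sequence is shown for the 3 members whose upstream regions bear most directly on these loops: Srebf2 and Insig1, both known targets of SREBP-2, and Mylip, a known target of LXR. Each is the 250 bases before the annotated RefSeq start on build GRCm38.p6, plus strand, written from 5′ to 3′. Capitals mark the sterol regulatory element core TCACNCCA, the E-box CACGTG and the CCAAT box CCAAT on either strand, and no marked stretch overlaps another. The windows are chr15:82147019-82147268 for Srebf2, chr5:28071162-28071411 for Insig1 and chr13:45389492-45389741 for Mylip.
Srebf2: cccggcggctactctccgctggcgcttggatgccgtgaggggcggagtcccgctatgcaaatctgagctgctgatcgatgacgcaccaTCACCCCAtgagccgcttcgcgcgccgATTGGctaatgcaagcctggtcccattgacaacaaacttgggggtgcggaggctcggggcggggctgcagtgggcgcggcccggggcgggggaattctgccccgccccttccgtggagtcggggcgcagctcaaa
Insig1: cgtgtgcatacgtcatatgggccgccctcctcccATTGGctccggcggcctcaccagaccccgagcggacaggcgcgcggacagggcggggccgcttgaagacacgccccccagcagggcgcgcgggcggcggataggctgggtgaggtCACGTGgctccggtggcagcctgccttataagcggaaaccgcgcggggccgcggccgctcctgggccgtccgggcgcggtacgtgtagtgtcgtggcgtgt
Mylip: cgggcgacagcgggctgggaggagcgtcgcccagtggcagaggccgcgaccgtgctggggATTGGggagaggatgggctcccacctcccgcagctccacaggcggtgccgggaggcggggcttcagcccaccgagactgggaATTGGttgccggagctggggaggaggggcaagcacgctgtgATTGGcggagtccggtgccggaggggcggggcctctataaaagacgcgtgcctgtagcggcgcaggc

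The table of promoters held 13 start sites for 7 of the members, and Stard4 was not among them. The sterol regulatory element core was found in 1 of the 13 windows, that of Srebf2, 162 to 155 bases before the start, and in 3.67% of all 32851 windows of the same length. The E-box was found in 2 of the 13, at 101 to 96 bases before the Insig1 start and at 1 of the Scap starts, and in 6.02% of all windows. The CCAAT box was found in 6 of the 13 windows and in 33.8% of all, with 3 copies in the Mylip window. The GC box GGGCGG, left in lower case, was found in 8 of the 13 and in 32.7% of all. The LXR element, AGGTCA repeated after a gap of 4 bases and searched on both strands like the others, was found in 0 of the 13 windows and in 0.0152% of all. These are matches of letters, and binding was not measured.

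Values are log2 intensities, on which a difference of 1 is a doubling. Array medians over the tested probe sets lay between 5.849 and 6.058 in total liver and between 4.681 and 4.894 in hepatocytes, so the tissues look to have been normalized separately, and levels were not compared between them. Background was set, after the data were seen, at the 95th percentile of intron controls on the same array, which was 9.96 to 10.23 in total liver and 6.84 to 8.01 in hepatocytes. The root mean square deviation of an array from the mean of its group was 0.229 to 0.320 in total liver and 0.363 to 0.594 in hepatocytes, with the largest value in hepatocytes on CDAA, replicate 1. Since the tissues differed in spread, every member was tested by limma in both ways: with a spread shared by all 14 arrays, the main test, and with the spread of the compared tissue alone. Adjusted p-values are those of limma, two-sided and corrected over all 22206 probe sets by the Benjamini-Hochberg method, and passing means an adjusted p under 0.05. On simulated data with 200 of 22206 probe sets changed, 62.3% of hepatocyte calls with the shared spread were false. In the data far more probe sets passed (18.7%), so that share does not carry over. A hepatocyte call that passes with the shared spread alone is still less well supported, since hepatocyte arrays varied more. The fit of hepatocytes alone missed most of the simulated differences, so a call it does not make is no sign that the gene did not change.

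The label of the hepatocyte samples was checked against markers of liver cell types. All 8 hepatocyte markers lay above background on every hepatocyte array, with a mean level of 16.90 to 17.60 on CDAA and 17.79 to 17.97 on CSAA. Of these markers Cps1 and Hnf4a fell on CDAA with the shared spread, at -1.35 and -1.72, and not with that of hepatocytes alone. Markers of Kupffer, sinusoidal endothelial and stellate cells differed sharply by diet in these preparations. The mean of 8 Kupffer cell markers was 10.50 to 11.74 in hepatocytes on CDAA and 4.96 to 5.30 on CSAA, where all 8 were under background on every array. The mean of 7 sinusoidal endothelial markers was 10.35 to 11.67 on CDAA and 6.56 to 7.03 on CSAA, and the mean of 7 stellate cell markers was 9.24 to 10.26 on CDAA and 5.21 to 5.95 on CSAA. Each of these 22 markers rose in hepatocyte preparations on CDAA with either spread. On CSAA, 4 of the 7 endothelial and 6 of the 7 stellate markers were under background on every array. Of 5 cholangiocyte markers 0 passed in hepatocyte preparations with either spread, and of 5 lymphocyte and neutrophil markers 1 rose with either. Most markers of these last 2 sets were under background on both diets. Every hepatocyte result below stands beside the marker differences given here. Fewer cells of a type and less RNA per cell cannot be told apart in such samples.

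Of the 7 measured members, Insig1 and Stard4 fell on CDAA in both tissues and with either spread. Mylip rose in hepatocyte preparations with either spread. Srebf2 and Scap were lower on CDAA in both tissues, but which tissue passed the test depended on the spread. Nr1h3 and Insig2 did not pass in either tissue.

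In total liver 2 of the 7 members passed with the shared spread, both downward, where 10.3% of all probe sets passed, 3.54% downward and 6.73% upward. With the spread of total liver alone 1 passed upward and 4 downward, against 11.7% and 9.05% of all (20.8% in either direction). In hepatocytes 1 passed upward and 4 downward with the shared spread, against 11% and 7.74% of all (18.7% in either direction). With the spread of hepatocytes alone 1 passed upward and 2 downward, against 6.53% and 1.95% of all (8.48% in either direction). All CDAA arrays lay above all CSAA arrays in 1 member and below them in 4 members in total liver, against 13.1% and 12% of all probe sets (25.1% in either direction). In hepatocytes this held for 1 member upward and 3 downward, against 12.4% and 14.2% (26.6% in either direction). The median member changed by -1.03 in total liver and -1.64 in hepatocytes, where the median of all tested probe sets changed by -0.092 and -0.129.

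**Figure D1:**
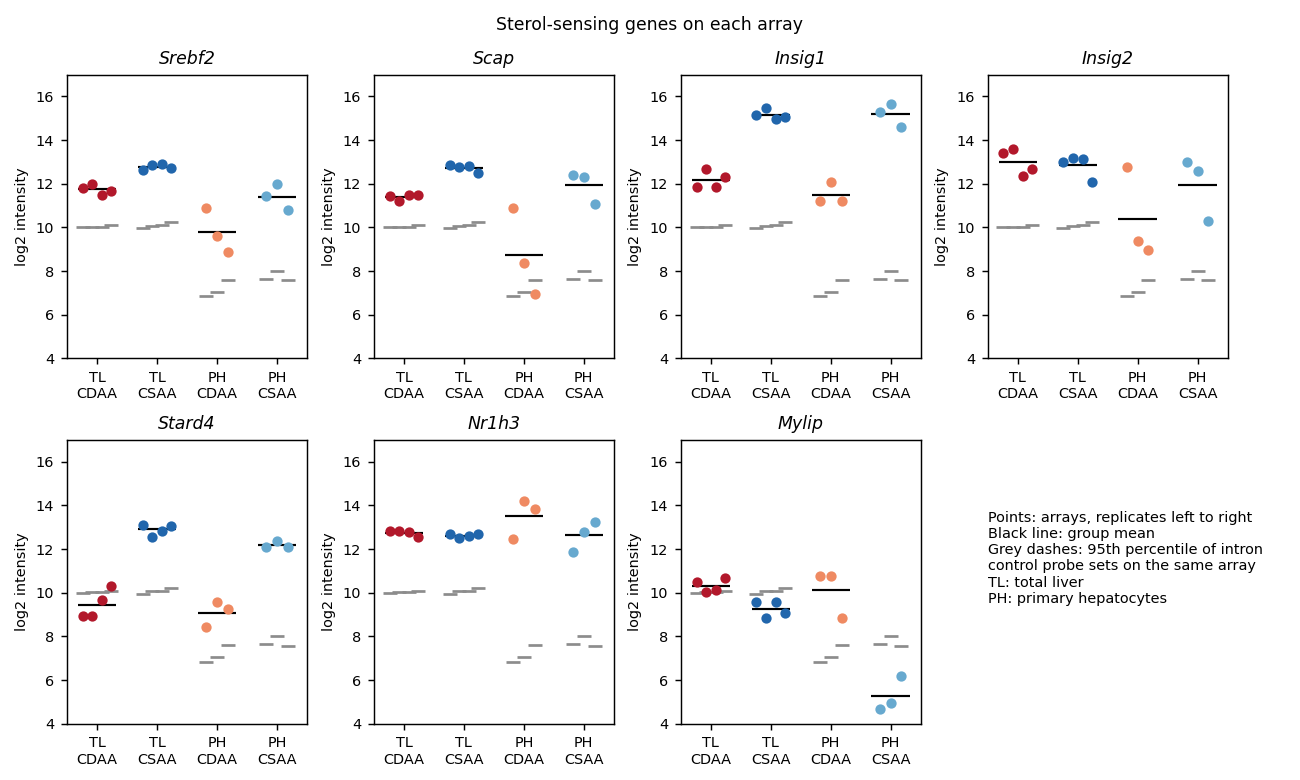
Log2 intensity (vertical axis) of the 7 measured genes on each array, by group (horizontal axis: total liver, TL, and primary hepatocytes, PH, on CDAA and CSAA). Points are arrays, black lines are group means and grey dashes are the 95th percentile of the intron controls of the same array. Insig1 and Stard4 lie lower on every CDAA array than on any CSAA array of the same tissue, and Mylip lies under the grey dashes on every CSAA array.

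Insig1 encodes the INSIG protein that is itself raised by SREBP and thereby closes the feedback loop. In total liver it measured 11.86, 12.67, 11.86 and 12.33 on CDAA, against 15.14, 15.46, 14.97 and 15.06 on CSAA. Every CDAA array lay below every CSAA array, and the arrays of 1 diet lay within a unit of each other. The difference was -2.98 ± 0.27 (SE), a level 7.87-fold lower on CDAA (limma adjusted p = 4.26e-06, and 2.85e-06 with the spread of total liver alone). In hepatocytes Insig1 measured 11.20, 12.07 and 11.23 on CDAA, against 15.27, 15.64 and 14.60 on CSAA. The diets did not overlap there either. The difference was -3.67 ± 0.31, a level 12.7-fold lower (limma adjusted p = 4.86e-07, and 0.00108 with the spread of hepatocytes alone). The change in total liver minus that in hepatocytes was 0.69, with a 95% interval of -0.19 to 1.57, and did not pass (limma adjusted p = 0.57).

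Insig2 encodes the related INSIG protein, which in mouse liver has a transcript of its own that is lowered by insulin. In total liver Insig2 measured 13.40, 13.61, 12.36 and 12.67 on CDAA, against 12.98, 13.16, 13.15 and 12.10 on CSAA. The diets overlapped, with a difference of 0.16 and a 95% interval of -0.52 to 0.84 with the spread of total liver alone (limma adjusted p = 0.742). With the shared spread the interval was -1.35 to 1.67 (limma adjusted p = 0.920). In hepatocytes Insig2 measured 12.75, 9.39 and 8.98 on CDAA, against 13.01, 12.59 and 10.29 on CSAA. The preparations of a single diet differed by more than 2 units, and the difference of -1.59 ± 0.82 did not pass (limma adjusted p = 0.204). Without CDAA replicate 1 it was -2.77 and passed with the shared spread (limma adjusted p = 0.00252) and with that of hepatocytes alone (limma adjusted p = 0.0359). It also passed, at -2.42, without CSAA replicate 3 (limma adjusted p = 0.0496).

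Stard4, the sterol carrier gene, also fell in both tissues. In total liver it measured 8.91, 8.94, 9.67 and 10.30 on CDAA, against 13.12, 12.57, 12.83 and 13.06 on CSAA. On CDAA only replicate 4 lay above background, so the size of the fall is limited by background there. The difference was -3.44 ± 0.30, or 10.8-fold (limma adjusted p = 3.44e-06, and 1.06e-05 with the spread of total liver alone). In hepatocytes Stard4 measured 8.43, 9.57 and 9.24 on CDAA, against 12.07, 12.36 and 12.07 on CSAA. All 6 values were above background and the diets did not overlap. The difference was -3.08 ± 0.35, or 8.48-fold (limma adjusted p = 9.88e-06, and 0.00147 with the spread of hepatocytes alone). The changes in total liver and in hepatocytes differed by -0.35, with a 95% interval of -1.35 to 0.64 (limma adjusted p = 0.844).

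Srebf2 encodes SREBP-2, and a sterol regulatory element in its own promoter, the TCACCCCA shown above, is known to let the factor raise its own gene. In total liver it measured 11.80, 11.97, 11.50 and 11.67 on CDAA, against 12.61, 12.85, 12.89 and 12.70 on CSAA. The 4 CDAA arrays all lay below the 4 CSAA arrays. The difference was -1.03, a level 2.04-fold lower, with an SE of 0.34 and a limma adjusted p of 0.0733 with the shared spread, and an SE of 0.15 and an adjusted p of 0.000579 with the spread of total liver alone. It also passed with the shared spread after joint quantile normalization (limma adjusted p = 0.0287) and after centring on array medians (limma adjusted p = 0.0331). In hepatocytes Srebf2 measured 10.88, 9.59 and 8.85 on CDAA, against 11.45, 11.99 and 10.79 on CSAA. The highest CDAA value was just above the lowest CSAA value. The difference was -1.64, or 3.11-fold lower, with an SE of 0.40 and a limma adjusted p of 0.00815 with the shared spread, and an SE of 0.54 and an adjusted p of 0.129 with the spread of hepatocytes alone.

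Scap, the escort of the SREBPs, followed the same course. In total liver Scap measured 11.45, 11.19, 11.49 and 11.50 on CDAA, against 12.87, 12.75, 12.80 and 12.50 on CSAA. The diets were parted by more than the range within either. The difference was -1.32, a level 2.50-fold lower, with an SE of 0.57 and a limma adjusted p of 0.171 with the shared spread, and an SE of 0.15 and an adjusted p of 7.68e-05 with the spread of total liver alone. In hepatocytes Scap measured 10.89, 8.39 and 6.96 on CDAA, against 12.41, 12.30 and 11.06 on CSAA. The CDAA preparations spread over nearly 4 units, and replicate 3 was under background. The difference was -3.18, or 9.05-fold lower, with an SE of 0.66 and a limma adjusted p of 0.00259 with the shared spread, and an SE of 0.92 and an adjusted p of 0.0846 with the spread of hepatocytes alone. Without CDAA replicate 1 it was -4.25 and passed with the spread of hepatocytes alone (limma adjusted p = 0.00117), as did Srebf2 at -2.19 (limma adjusted p = 0.00965).

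Scap, Srebf2 and Insig2 were ranked alike among the 3 hepatocyte preparations on CDAA, highest in replicate 1 and lowest in replicate 3. The median of the exon control probe sets over that of the intron controls, a measure of array signal quality, had the same rank, at 5.062, 4.524 and 4.115 in replicates 1, 2 and 3. So had the mean of the hepatocyte markers, at 17.60, 17.12 and 16.90. Among the CSAA preparations, replicate 3 was lowest in all 3 genes, with an exon-over-intron median of 4.43 against 4.698 and 4.467 in replicates 1 and 2. Its hepatocyte marker mean was not the lowest, at 17.89 against 17.97 and 17.79. In total liver the exon-over-intron median was 4.143 to 4.332 on CDAA and 4.011 to 4.276 on CSAA. A second signal measure was the share of exon and intron control pairs in which the exon control was higher. On hepatocyte CDAA replicates 1, 2 and 3 it was 0.8961, 0.8728 and 0.8472. On hepatocyte CSAA replicates 1, 2 and 3 it was 0.8645, 0.8516 and 0.8559, so replicate 3 was not the lowest there. The part of signal quality and of cell makeup in the hepatocyte values was not tested.

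**Figure D2:**
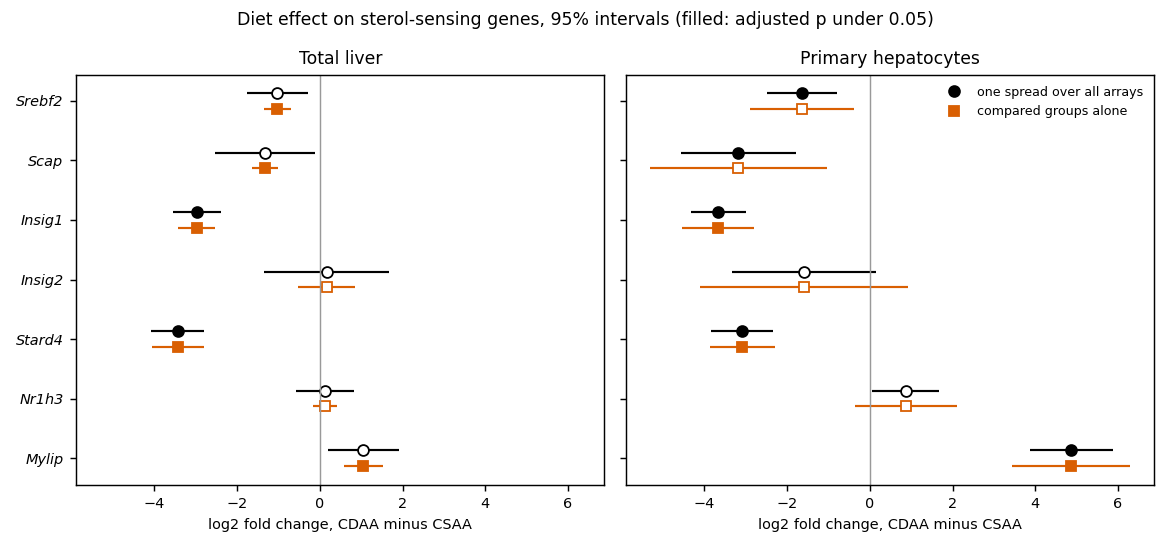
Log2 fold change, CDAA minus CSAA (horizontal axis), of each gene (vertical axis) in total liver and in primary hepatocytes, with 95% intervals. Circles use a spread shared by all arrays and squares the spread of the compared tissue alone, and filled symbols have an adjusted p under 0.05. For Srebf2 and Scap the filled symbol is the square in total liver and the circle in hepatocytes, while Insig1 and Stard4 are filled throughout.

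Nr1h3, the gene of LXR-alpha, differed little between the diets in total liver. It measured 12.81, 12.84, 12.77 and 12.56 on CDAA, against 12.67, 12.51, 12.59 and 12.67 on CSAA. The diets overlapped, and the difference of 0.13 had a 95% interval of -0.16 to 0.42 with the spread of total liver alone (limma adjusted p = 0.511). With the shared spread the interval was -0.57 to 0.83 (limma adjusted p = 0.852). In hepatocytes Nr1h3 measured 12.47, 14.19 and 13.83 on CDAA, against 11.86, 12.78 and 13.24 on CSAA. The diets overlapped through CDAA replicate 1, and the difference of 0.87 ± 0.38 did not pass (limma adjusted p = 0.133). Without that replicate it was 1.38 and passed with the shared spread (limma adjusted p = 0.00292) but not with that of hepatocytes alone (limma adjusted p = 0.0685). On that replicate the Kupffer cell marker mean was 10.50, against 11.74 and 11.46 on CDAA replicates 2 and 3. The recruited macrophage marker mean was 8.87, against 10.68 and 10.63. On CSAA the Kupffer cell mean, at 5.11, 5.30 and 4.96, did not share the rank of Nr1h3. The part of these cells in the Nr1h3 values was not tested.

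Mylip, the ubiquitin ligase that lowers the LDL receptor, was the only measured member that passed upward with the shared spread or that of each tissue when all arrays were used. In total liver Mylip measured 10.48, 10.05, 10.11 and 10.66 on CDAA, against 9.58, 8.83, 9.58 and 9.09 on CSAA. The 4 CDAA values lay just above background and the 4 CSAA values under it. The difference was 1.06, of which 0.24 (1.18-fold) was left with CSAA at background. That remainder has no interval of its own. The SE of the difference was 0.41 with the shared spread and 0.21 with that of total liver alone. The difference did not pass with the shared spread (limma adjusted p = 0.124) and passed with the spread of total liver alone (limma adjusted p = 0.00482).

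In hepatocytes Mylip measured 10.77, 10.77 and 8.84 on CDAA, against 4.67, 4.93 and 6.17 on CSAA. Every CDAA value was above background and every CSAA value under it. The fitted difference was 4.87 ± 0.47 (limma adjusted p = 1.84e-06, and 0.00264 with the spread of hepatocytes alone). Of it 2.39 (5.22-fold) was left with CSAA at background. The change in total liver minus that in hepatocytes was -3.82 ± 0.62 (limma adjusted p = 0.00225, and 0.0174 with a spread for each tissue), which rests on CSAA values under background in both tissues. Since the bounds put CSAA at background, and background was higher in total liver, the size of this difference is not established. Mylip was the only member that passed this test, where 2.57% of all probe sets passed with the shared spread (2.36% downward) and 1.78% with a spread for each tissue (1.71% downward). For Srebf2, Scap, Insig2 and Nr1h3 the same difference was 0.61, 1.86, 1.75 and -0.73 and did not pass (limma adjusted p = 0.732, 0.421, 0.593 and 0.645). Without hepatocyte CDAA replicate 1, Scap and Insig2 passed as well, at 2.93 and 2.94 (limma adjusted p = 0.00115 and 0.0217).

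The rise of Mylip in hepatocyte preparations went with that of the markers of Kupffer, sinusoidal endothelial and stellate cells. On CDAA replicate 3, where Mylip was lowest, the sinusoidal endothelial mean was also lowest, at 10.35 against 11.38 and 11.67 on replicates 1 and 2. The Kupffer cell mean was 11.46 against 10.50 and 11.74, and the stellate cell mean 10.18 against 9.24 and 10.26. The mean of 7 recruited macrophage markers was 10.63 against 8.87 and 10.68. Replicate 3 was also lowest of these preparations in exon-over-intron median, at 4.115, and in hepatocyte marker mean, at 16.90. In total liver the endothelial mean was 10.54 to 11.42 on CDAA and 10.63 to 10.74 on CSAA, and the Kupffer cell mean 10.35 to 11.07 on CDAA and 8.73 to 9.86 on CSAA. The part of cell makeup and of signal quality in the change of Mylip was not tested.

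**Figure D3:**
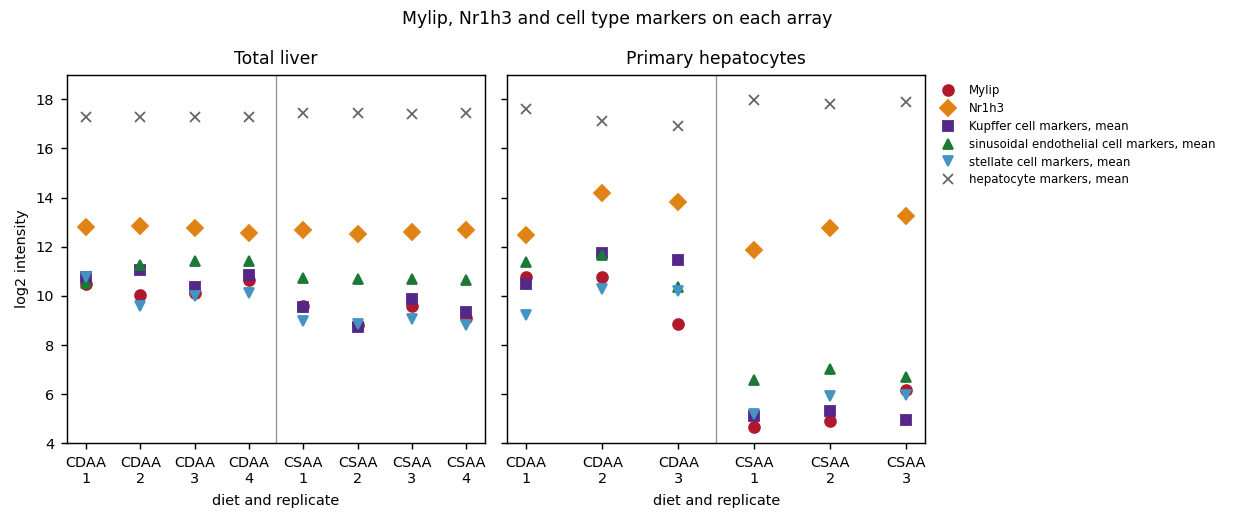
Log2 intensity (vertical axis) of Mylip and Nr1h3 and the mean log2 intensity of Kupffer cell, sinusoidal endothelial, stellate cell and hepatocyte markers on each array (horizontal axis, diet and replicate), in total liver and in primary hepatocytes. In hepatocyte preparations Mylip and the markers of the 3 other cell types lie between 8.84 and 11.74 on CDAA and between 4.67 and 7.03 on CSAA, Nr1h3 lies between 11.86 and 14.19, and the hepatocyte markers lie between 16.90 and 17.97 on both diets.

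Genes were also ranked by how closely their values followed those of a member over the 14 arrays, after the mean of each tissue was removed, by the root mean square difference in log2 units. Nearest to Insig1 were Mvd (0.374), a mevalonate pathway enzyme, the retinol dehydrogenase gene Rdh11 (0.429) and the squalene synthase gene Fdft1 (0.459). Fdft1 was also nearest to Stard4 (0.406), followed by Adh6-ps1 (0.428) and Ttc39c (0.438). For scale, the values of Insig1 and Stard4 themselves varied by 1.68 and 1.69 about their tissue means. Those of Srebf2, Scap and Mylip varied by 0.807, 1.41 and 1.74. Nearest to Mylip were the nucleobase transporter gene Slc43a3 (0.465), the endocytic adaptor gene Dab2 (0.473) and the semaphorin gene Sema6d (0.473). Slc43a3, Dab2 and Sema6d changed by 0.64, 0.71 and 0.65 in total liver and by 5.19, 4.45 and 4.46 in hepatocytes. Srebf2 was nearest to BC021767 (0.1996), Cmtm6 (0.231) and Dcaf5 (0.242), and Scap to Wdtc1 (0.268), the mitochondrial carrier gene Slc25a23 (0.297) and Tmprss6 (0.299), a hepatocyte protease gene.

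The wider pathway was described through gene lists. Of 16 measured cholesterol synthesis targets of SREBP-2, all 16 fell in total liver and all 16 in hepatocytes, with either spread, with medians of -3.06 and -3.45, where 3.54% and 7.74% of all probe sets fell with the shared spread. Of these genes Mvk was under background on both diets in both tissues and Mvd in total liver, so that their falls lie between values not above background. On CDAA 6 of the 16 were under background in total liver and 5 in hepatocytes, which limits the size of their falls. The smallest p-values in hepatocytes belonged to the squalene epoxidase gene Sqle (-5.77 ± 0.36), the sterol dehydrogenase gene Nsdhl (-4.13 ± 0.28), the farnesyl diphosphate synthase gene Fdps (-5.19 ± 0.42) and Hsd17b7 (-3.19 ± 0.25). Sqle and Fdps were under background on CDAA, and falls of 2.94 and 3.93 were left with CDAA at background.

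Of 11 lipogenic targets of SREBP-1c, the factor encoded by Srebf1, 4 fell in total liver and 8 in hepatocytes with the shared spread, and 10 and 3 with the spread of each tissue. Of all probe sets 3.54% and 7.74% fell with the shared spread and 9.05% and 1.95% with that of each tissue. The citrate lyase gene Acly changed by -2.54 in total liver and -3.99 in hepatocytes, and the acetyl-CoA synthetase gene Acss2 by -2.41 and -2.89. Lpin1 changed by -2.09 in total liver and -2.88 in hepatocytes. Each of these falls passed with either spread. The list median was -1.06 in total liver and -2.68 in hepatocytes. All 11 were lower on CDAA in both tissues, whether or not they passed. Acacb and Pnpla3 were under background on both diets in both tissues, and both are among the 10 counted in total liver. Their falls thus lie between values not above background.

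Of 8 measured LXR targets, 3 rose in each tissue with either spread, while 5 did so in total liver with the spread of that tissue. Of all probe sets 6.73% rose in total liver and 11% in hepatocytes with the shared spread, and 11.7% and 6.53% with that of each tissue. All 8 were higher on CDAA in total liver, whereas 4 of the 8 were lower in hepatocytes, and 1 gene passed downward there after joint quantile normalization and 1 after centring on array medians. The 3 that rose were the lipoprotein lipase gene Lpl, the phospholipid transfer protein gene Pltp and the sterol transporter gene Abcg1. Lpl changed by 4.21 ± 0.52 in total liver, where CSAA was under background (bound 2.82), and 5.60 ± 0.61 in hepatocytes, and Pltp by 2.40 ± 0.56 and 5.35 ± 0.65. Abcg1 changed by 2.08 ± 0.36 in total liver, where both diets were under background, and by 3.77 ± 0.42 in hepatocytes, where 0.34 was left with CSAA at background. All 3 are also expressed in macrophages. Of 7 markers of recruited macrophages, 7 rose in each tissue with the shared spread, with a mean level of 9.71 to 10.88 on CDAA and 5.57 to 5.65 on CSAA in total liver and of 8.87 to 10.68 on CDAA and 4.08 to 4.38 on CSAA in hepatocytes. Of 8 Kupffer cell markers, 4 rose in total liver and 8 in hepatocytes with the shared spread. Cd163, another of the 8, changed by -1.40 in total liver (limma adjusted p = 0.0545), where both diets were under background. After joint quantile normalization, and after centring on array medians, 1 of the 8 passed downward in total liver. The part of these cells in the rise of the 3 genes was not tested.

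Of 7 measured genes of SREBP processing and turnover, 1 rose in each tissue with the shared spread, where 6.73% and 11% of all probe sets rose. The 1 of 7 is near the share of all that passed, 10.3% in total liver and 18.7% in hepatocytes. The gene that rose was Rnf145, a ubiquitin ligase known in mouse liver as an LXR target that acts on SCAP. Rnf145 measured 11.18 ± 0.39 on CDAA and 9.21 ± 0.22 on CSAA in total liver (SD, n = 4 each), a difference of 1.96 ± 0.33 with CSAA under background (bound 1.09, limma adjusted p = 0.00103). In hepatocytes it measured 8.14 ± 0.99 on CDAA and 6.60 ± 0.28 on CSAA (SD, n = 3 each), a difference of 1.54 ± 0.38 (bound 0.40, limma adjusted p = 0.00959, and 0.11 with the spread of hepatocytes alone). The site-1 protease gene Mbtps1 changed by -0.32 and -0.94 and Fbxw7, whose product marks nuclear SREBP for degradation, by -0.25 and -0.65 in total liver and hepatocytes, without passing, and Fbxw7 was under background in all 4 groups. Of 4 measured LXR partners and cofactors 0 passed by limma with either spread. Rxrb and Rxrg were under background on both diets in both tissues. Ncoa1 was under it on both diets in total liver and on CSAA in hepatocytes. The unadjusted limma p with the shared spread was under 0.05 for Rxrg in total liver and for Rxra in hepatocytes. The partner receptor gene Rxra changed by -0.78 in total liver and -1.31 in hepatocytes (limma adjusted p = 0.303 and 0.0853).

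Of 13 measured genes of lipoprotein uptake and endosomal cholesterol release, 0 rose and 1 fell in total liver with the shared spread, and 3 rose and 2 fell with the spread of total liver alone. In hepatocytes 4 rose and 1 fell with the shared spread and 2 rose and 1 fell with that of hepatocytes alone. Of all probe sets 10.3% passed in total liver and 18.7% in hepatocytes with the shared spread, and 20.8% and 8.48% with that of each tissue, so the 1 of 13 in total liver is near the share of all. The gene that fell in both tissues was Sort1, a sorting receptor of lipoproteins, by 1.02 in total liver and 1.19 in hepatocytes with either spread. Lipa, the lysosomal acid lipase gene, changed by 0.89 ± 0.30 in total liver and 1.28 ± 0.34 in hepatocytes, and Npc2, which takes cholesterol out of lysosomes, by 1.03 ± 0.36 and 2.93 ± 0.42. Neither passed in total liver with the shared spread, and both passed with the spread of total liver alone (limma adjusted p = 0.000735 and 0.00529). In hepatocytes both passed with the shared spread, while with that of hepatocytes alone Npc2 passed and Lipa, whose diets overlapped, did not (limma adjusted p = 0.0135 and 0.171). The endosomal partner gene Npc1 changed by 0.69 ± 0.45 and -1.39 ± 0.52, and the endocytic receptor gene Lrp1 by -0.25 ± 0.51 and -1.18 ± 0.59, in total liver and hepatocytes, and neither passed with the shared spread, while Npc1 passed in total liver with the spread of total liver alone (limma adjusted p = 0.0348). Dab2 rose in hepatocyte preparations by 4.45 ± 0.47, with CSAA under background (bound 2.07).

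Among 8 genes of nonvesicular sterol transfer, the family of work that STARD4 belongs to, 1 rose in total liver, and 2 rose and 1 fell in hepatocytes, with the shared spread, against 10.3% and 18.7% of all probe sets that passed. The 1 of 8 in total liver is near the share of all. The genes that rose in hepatocytes were Stard3, which encodes a late endosomal sterol binder, and Gramd1a, by 0.80 and 0.79, neither of which passed with the spread of hepatocytes alone (limma adjusted p = 0.0877 and 0.107). Gramd1a was under background on both diets, and both rises were lost after joint quantile normalization. The gene called in both tissues was Gramd1c, which encodes a sterol-binding protein of the endoplasmic reticulum. Gramd1c changed by 0.82 ± 0.25 in total liver (limma adjusted p = 0.0447) and by -0.98 ± 0.28 in hepatocytes (limma adjusted p = 0.0239, and 0.0937 with the spread of hepatocytes alone), of which -0.28 was left with CDAA, there under background, at the percentile. The difference between the changes was 1.81 ± 0.38 (limma adjusted p = 0.0137, and 0.0168 with a spread for each tissue), and its size rests on those values under background. The call in total liver was lost after joint quantile normalization and after centring on array medians.

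**Figure D4:**
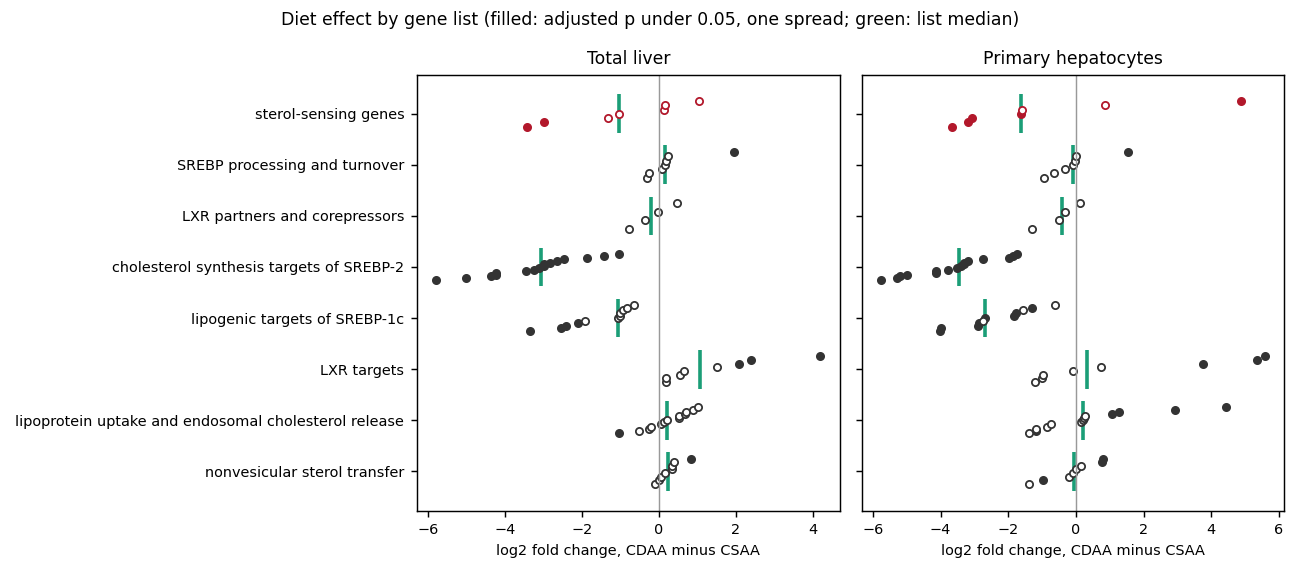
Log2 fold change, CDAA minus CSAA (horizontal axis), of the sterol-sensing genes (red) and of each gene of the 7 pathway lists (grey), in total liver and in primary hepatocytes. Filled points have an adjusted p under 0.05 with the shared spread and green bars are list medians. The cholesterol synthesis targets all lie left of 0 in both tissues, with medians of -3.06 and -3.45.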

How the data were processed

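The deposited values are log2 intensities per probe set. Per the submitters' processing notes, the authors made them with RMA; its version and parameters are not given in the sources used here. Of 28846 probe sets, 6640 controls were left out and 22206 tested without a filter. Gene symbols came from the platform annotation; 19572 tested probe sets had 1 symbol and 2634 none. With limma 3.58.1 (R 4.3.3), 1 mean was estimated for each of the 4 groups in a single fit (10 residual and 5.11 prior degrees of freedom). It gave the diet effect, CDAA minus CSAA, of total liver, that of hepatocytes, and the first minus the second. A second fit used each tissue alone, with 6 residual degrees of freedom in total liver and 4 in hepatocytes. For the difference between tissues, the SEs of this second fit were combined in a t-test with Satterthwaite's degrees of freedom. Data were simulated with 200 of 22206 probe sets changed and a spread of its own in each tissue. Most hepatocyte calls with the shared spread were then false, whereas the fit of hepatocytes alone made few false calls and missed most changes. In total liver both fits made few false calls. In the data far more probe sets passed, so these false shares do not carry over. The number of arrays limits the precision. A group counts as under background if no array of it exceeded the 95th percentile of intron controls, and a bound puts that group at the percentile. A bound has no interval of its own.

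Groups came from the sample titles. The members and gene lists were chosen with earlier results of these data known. Named were all members, some of the genes of smallest p among those that passed in each list, and a fixed set of pathway genes. Of that set Nr1h2 and Mbtps2, among others, had no named probe set and were not analysed here. The 3 closest profiles of each member that passed were named too. Alternatives were other moderation, a dim filter, other scalings, array weights, a replicate block and leaving out arrays. Arrays of equal replicate number were not taken as pairs in the main fit. The correlation of their residuals was 0.346, -0.211 and 0.262 for numbers 1, 2 and 3 of hepatocytes and -0.126 to 0.0152 for the 4 of total liver. So few values cannot tell whether the hepatocyte preparations were paired.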

Additional observations from a re-analysis of the deposited data

Results flagged for a closer look

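For Mylip the change in total liver minus that in hepatocytes was -3.82 and passed the limma test of the difference itself. All CSAA values lay under background in both tissues. With CSAA at background, rises of 0.24 in total liver and 2.39 in hepatocytes were left, so the size of the difference is not established. On total liver, the lowest Scap value on CDAA, 11.19 in replicate 2, stood apart from the other 3 arrays by 0.838 of the range of the group, past Dixon's 95% limit for 4 samples. The lowest Insig2 value on CSAA, 12.10 in replicate 4, stood apart by 0.832 of the range. With 14 groups of 4 arrays examined, chance alone gives such a gap in about 5% of groups.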

How the results depend on the processing

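Over all 22206 probe sets, 2279 passed in total liver, 4158 in hepatocytes and 570 for the difference between tissues. With the compared groups alone these were 4613, 1883 and 396, and with array weights 4992, 6806 and 2725. The replicate block gave 2215, 4285 and 615. Leaving out 1 array gave 1510 (without CDAA replicate 1) to 1911 in total liver, 3039 to 5811 in hepatocytes and 396 to 2265 for the difference. The 5811 and 2265 came without hepatocyte CDAA replicate 1; with each tissue's own spread the counts without it were 3221 and 1434. Of the members, 2 passed in total liver, 5 in hepatocytes and 1 for the difference. These became 5 (total liver) and 3 (hepatocytes) with the compared groups alone, 5 in total liver, 7 in hepatocytes and 4 for the difference with array weights, and 4 in total liver, 7 in hepatocytes and 1 for the difference with the replicate block. Nr1h3 was then upward in hepatocytes beside Mylip. Leaving out 1 array gave 2 in every case in total liver, 5 to 7 in hepatocytes and 1 to 3 for the difference. The 3 came without hepatocyte CDAA replicate 1, where Scap (2.93) and Insig2 (2.94) passed beside Mylip; the cause was not tested.

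With the replicate block, Srebf2 and Scap passed in total liver (limma adjusted p = 0.0385 and 0.0415), and Insig2 and Nr1h3 in hepatocytes (limma adjusted p = 0.0337 and 0.0247). Across members and settings, 330 of 357 values kept their side of the threshold, 25 passed newly and 2 no longer passed. No value that passed changed its sign; Insig2 and Nr1h3 in total liver, which did not pass, changed sign in some settings, with lowest values of -0.086 and -0.0057, as did the Insig1 difference between tissues, at -0.23 after joint quantile normalization. Insig1 and Stard4 in both tissues, and Mylip in hepatocytes, passed under every alternative run. Centring on array medians gave a median of all probe sets of -0.231 in total liver and -0.289 in hepatocytes, against -0.092 and -0.129 as deposited. Under it, and after joint quantile normalization, the uptake and release list had 4 up and 4 down in hepatocytes. Of all 22206 probe sets, 2149 rose and 3244 fell there after centring, and 2360 rose and 3068 fell after joint quantile normalization. Each member had 1 probe set, so the mean over probe sets was not run. Background limits Mylip on CSAA and Stard4 in total liver on CDAA.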
